A study of Mus musculus with 16 samples.

Results

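The MYC family and its partners were followed across mouse embryonic stem cells (mESCs) of 3 genotypes grown in serum or in 2i medium. Every probe of the array whose transcript accession belonged to *Myc*, *Mycn*, *Max*, *Mxd1*, *Mxd3*, *Mxd4*, *Mxi1* or *Mnt* was taken. This gave 10 of 55681 non-control probes, and 8 of 21150 named genes. The set was chosen by the measured log2 difference of *Myc*, which stood among the largest increases of 3B3-3l over J1 mESCs in serum. The values of that comparison are therefore given as a description with no test for any of the 8 genes, and *Myc* has a test only in comparisons that share no J1-serum or 3B3-3l-serum array with it.

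J1 is a wild-type male mESC line. TKO mESCs were derived from J1 and lack *Dnmt1*, *Dnmt3a* and *Dnmt3b*, which encode the DNA methyltransferases. 3B3-3l mESCs, also from J1, lack endogenous *Dnmt3a* and *Dnmt3b* and constitutively express exogenous *Dnmt3b* and its cofactor *Dnmt3l*. Each line was grown in serum with 500 U/ml leukaemia inhibitory factor (LIF), or for 2 weeks in serum-free 2i medium with 1000 U/ml LIF, 1 µM of the MEK inhibitor PD0325901 and 3 µM of the GSK3 inhibitor CHIR99021. Total RNA was measured on 16 single-colour arrays, with 4 of J1-serum, 3 of J1-2i, 2 of TKO-serum, 3 of TKO-2i, 2 of 3B3-3l-serum and 2 of 3B3-3l-2i. The labels do not say whether replicates were separate cultures, so p-values measure only the spread between these samples.

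In the serum cultures J1 cells alone were grown on inactivated fibroblast feeder cells, so that line and feeder cells cannot be told apart where another line is compared with J1-serum. In J1-2i minus J1-serum, medium and the loss of feeder cells cannot be told apart either, and 15 of 15 tested fibroblast markers were lower in J1-2i, where 25% of all genes were. In the lines grown without feeder cells, 9 of 15 were lower in TKO-2i than in TKO-serum (18% of all genes) and 10 of 15 in 3B3-3l-2i than in 3B3-3l-serum (15.4%). All 10 mESC markers were well above background on every array. Of 20 fibroblast markers, 14 to 15 were well above background in J1-serum, against 11 to 12 in TKO-serum and 3B3-3l-serum and 7 to 10 in the 2i groups. Their summed level, in units of the array's 75th percentile, was 95.3 to 123 in J1-serum, 84.7 to 87.9 in 3B3-3l-serum, 51 to 52 in TKO-serum and 30.7 to 48.1 in 2i. *Pdgfra*, picked from these 20, was well above background in J1-serum alone, on 4 of 4 arrays, and which cells gave that signal was not tested. Of 7 primitive endoderm markers, 7 were well above background in J1-serum, 4 to 6 in TKO-serum, 4 in 3B3-3l-serum and 1 to 3 in the 2i groups. Of 6 trophoblast markers, 5 were well above background in 3B3-3l-serum, 3 to 4 in TKO-serum, 1 to 2 in J1-serum and 2 to 3 in 2i, with a summed level of 5.56 to 6.27 in 3B3-3l-serum, 4.2 to 4.32 in TKO-serum, 2.51 to 2.61 in J1-serum and 2.85 to 3.21 in 2i. Of 5 neural markers, 5 were well above background in TKO-serum and 3B3-3l-serum, 4 in J1-serum and 3 in 2i, and of 5 mesoderm markers 1 to 3 were in any group. In J1-2i the mesoderm marker *T* and the trophoblast marker *Cdx2* were not well above background. *T* was at least 8.42-fold higher in 3B3-3l-2i and 2.18-fold in TKO-2i, and *Cdx2* at least 10.3-fold and 2.74-fold. The trophoblast marker *Tfap2a* was lower in 3B3-3l-2i than in J1-2i by -0.74. The part of these markers in the results below was not tested. *Dnmt1* had a mean level of 1.81 in J1-serum and -1.67 in TKO-serum, *Dnmt3a* was not well above background in TKO or 3B3-3l mESCs, and *Dnmt3b* reached 5.53 in 3B3-3l-serum and 5.82 in 3B3-3l-2i, against 2.96 in J1-serum. In TKO mESCs the *Dnmt1* probe remained above background, at -1.67 in serum and -1.55 in 2i, as did that of *Dnmt3b*, at -0.34 and -0.64. All 3B3-3l arrays lay on slide 3 together with 1 J1-serum array, and slides 1 and 2 held all other arrays, so comparisons of 3B3-3l with other lines are also given with the slide as a block where this ended a call or moved a value or count by over 1.5 times. That block rests on the 1 J1-serum array of slide 3.

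MYC and MYCN are basic helix-loop-helix leucine zipper transcription factors that bind E-box DNA as heterodimers with MAX and promote ribosome production, metabolism and cell cycle entry. MXD1, MXD3, MXD4, MXI1 and MNT also pair with MAX, bind the same sites and recruit the SIN3 corepressor. In mESCs, LIF acting through STAT3 and the MEK and WNT pathways regulate *Myc*, and GSK3 marks the MYC protein for degradation.

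The promoters of *Mycn* and *Mxd4* are printed because these genes carry the largest tested changes with 2i other than that of *Myc*. Each is the 250 bases before the transcript start in RefSeq (GRCm38.p6), read on the minus strand. That of *Mycn* lies at chr12:12941837-12942086, and the capitals mark the E2F motif TTTGGCGC, found at 183 and 168 bases before the start. That of *Mxd4* lies at chr5:34187711-34187960, and the capitals mark the E-box CACGTG, 219 bases before the start.
Mycn: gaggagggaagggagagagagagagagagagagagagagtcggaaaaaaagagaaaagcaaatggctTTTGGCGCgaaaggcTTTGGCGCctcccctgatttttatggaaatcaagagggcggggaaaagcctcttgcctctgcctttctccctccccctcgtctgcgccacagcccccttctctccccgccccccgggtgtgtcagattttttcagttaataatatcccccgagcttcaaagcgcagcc
Mxd4: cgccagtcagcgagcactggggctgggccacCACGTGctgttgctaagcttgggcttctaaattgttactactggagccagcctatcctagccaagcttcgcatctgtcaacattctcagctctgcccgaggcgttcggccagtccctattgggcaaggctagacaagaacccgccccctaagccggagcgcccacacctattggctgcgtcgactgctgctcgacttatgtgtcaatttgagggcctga
Such windows were given for 7 of the 8 genes, 9 windows in all, with none for *Myc*. They were searched on both strands for the E-box CACGTG, held by 6.02% of 32851 mouse promoter windows, for the TCF motif CTTTGAT, held by 3.21%, for the STAT motif TTCNNNGAA, held by 7.02%, and for the E2F motifs TTTGGCGC and TTTCCCGC, held by 1.3%. Beside the matches above, *Mnt* had an E-box 123 bases before its start, and the windows held no other match to these letters. A match to letters is a description and not a measured binding site.

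Levels are log2 of the processed signal minus the array's 75th percentile, so 0 is the 75th percentile of all spots. They compare samples for 1 probe and not different genes. A difference was called where limma's adjusted p did not exceed 0.05. RNA of whole cultures was measured, so fewer cells that express a gene and less RNA per cell cannot be told apart.

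*Myc* was highest in 3B3-3l mESCs and fell with 2i in the TKO line, where the change could be tested. Its level was 2.83 and 3.00 in 3B3-3l-serum and 2.26 and 1.46 in TKO-serum. In J1-serum it was -0.71, -0.49, -0.47 and -0.55. In 2i it was 1.07 and 1.24 in 3B3-3l, -0.83, -0.71 and -0.70 in TKO, and -2.08, -2.47 and -2.33 in J1. Within each medium every 3B3-3l array lay above every TKO array, and every TKO array above every J1 array. J1-serum and TKO-2i overlapped, while all other neighbours in the order of group means were separate. The *Myc* level of TKO fell by 2.61 ± 0.19 (SE) on the log2 scale in 2i, 6.11-fold, from 1.86 ± 0.57 (SD, n = 2) to -0.75 ± 0.07 (SD, n = 3), with an adjusted p of 4.2e-07. It was the 265th lowest of 13851 gene differences in that comparison. On slide 1 alone the difference was -2.57.

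In J1 the *Myc* difference between 2i and serum was -1.74 ± 0.16 (SE) and in 3B3-3l -1.76 ± 0.21, both as a description. The 2i difference of TKO minus that of J1 was -0.87, or -0.47 and -1.27 without TKO-serum replicate 1 or 2, and that of 3B3-3l minus that of J1 was -0.02.

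Between lines in 2i, *Myc* was higher in TKO than in J1 by 1.55 ± 0.17 (SE), 2.92-fold, with an adjusted p of 4.1e-05. Within slide 1 that difference was 1.50 and within slide 2, with 1 array a group, it was 1.64. In 3B3-3l-2i it exceeded J1-2i by 3.45 ± 0.19, 10.9-fold, with an adjusted p of 1.0e-07, and TKO-2i by 1.90 ± 0.19, 3.73-fold, with an adjusted p of 1.6e-05. With the slide as a block these were 3.66 and 2.11, given without a test because the block brings in the J1-serum array on slide 3. The gap to J1-2i was the 27th highest of 13861 genes. In serum, the comparison that chose *Myc*, 3B3-3l exceeded J1 by 3.47, the 10th highest of 13854 genes, and by 3.63 against the 1 J1-serum array on the same slide. TKO-serum exceeded J1-serum by 2.42. These serum values describe *Myc* and have no test.

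**Figure D1:**
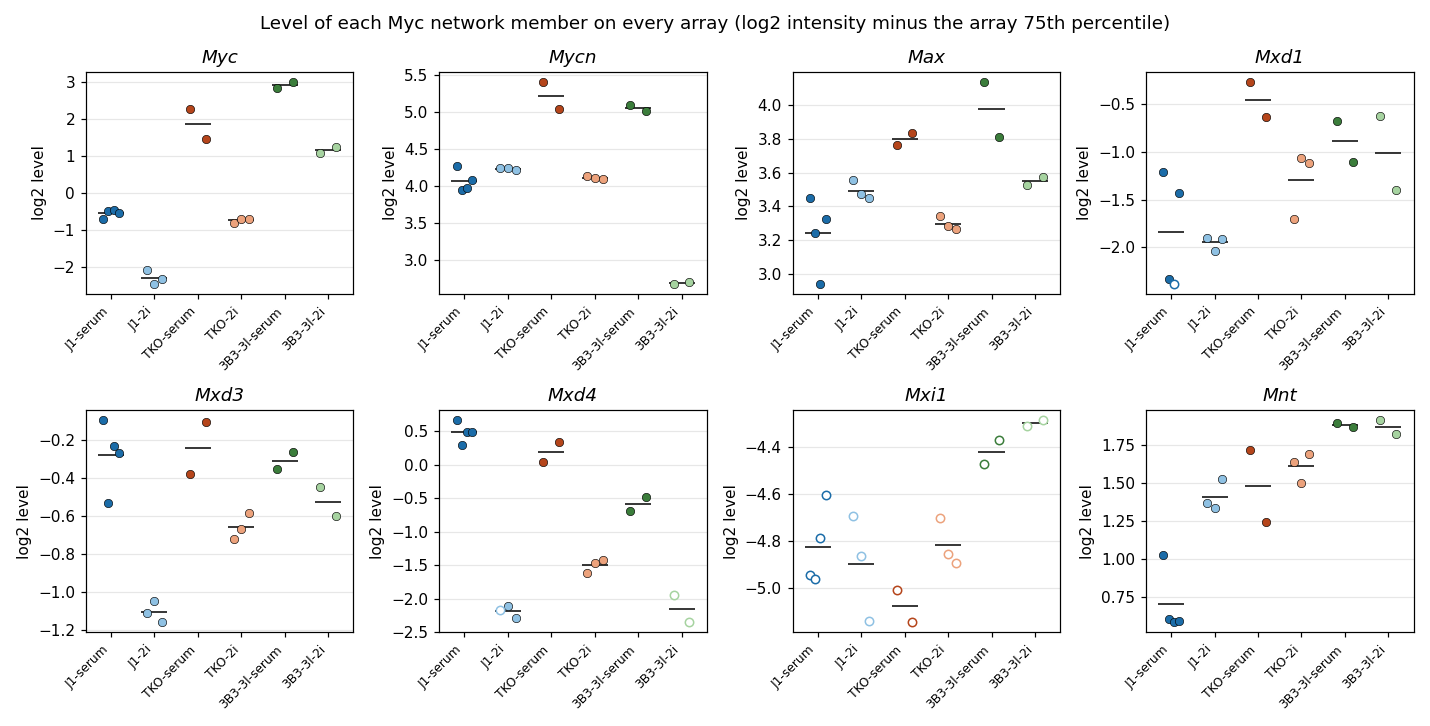
Level of the 8 genes on each of the 16 arrays (vertical axis, log2 of processed signal over the array's 75th percentile, with its own range in each panel), by group on the horizontal axis. Points are arrays, bars are group means, and open symbols mark probes not well above background. *Myc* is highest in 3B3-3l-serum (2.83 and 3.00) and lowest in J1-2i, whereas *Mycn* is lowest in 3B3-3l-2i (2.68 and 2.70).

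*Mycn*, the family member that mESCs and the early embryo use beside *Myc*, fell with 2i in both mutant lines. It read 4.27, 3.95, 3.98 and 4.09 in J1-serum and 4.25, 4.25 and 4.22 in J1-2i, where the ranges overlapped. In TKO it was 5.41 and 5.04 in serum and 4.13, 4.11 and 4.10 in 2i. In 3B3-3l it was 5.10 and 5.01 in serum and 2.68 and 2.70 in 2i. The 2 arrays of 3B3-3l-2i were thus the lowest of all 16. The J1 difference was 0.17, with a 95% interval from -0.05 to 0.39 (adjusted p = 0.20). *Mycn* fell by 1.11 ± 0.12 (SE) in TKO and by 2.36 ± 0.13 in 3B3-3l, 5.15-fold, with adjusted p of 1.4e-05 and 5.1e-08.

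The 2i change of *Mycn* differed between the lines in all 3 tests of the difference. The TKO change minus that of J1 was -1.28 ± 0.16 (SE) (adjusted p = 8.2e-05), the 3B3-3l change minus that of J1 was -2.53 ± 0.17 (adjusted p = 4.0e-07), and the 3B3-3l change minus that of TKO was -1.26 ± 0.18 (adjusted p = 4.9e-04). The difference between the 3B3-3l and J1 changes was the 130th lowest of 13849 genes. In serum *Mycn* was higher in TKO than in J1 by 1.15 ± 0.12 (adjusted p = 6.0e-06). In 2i TKO and J1 differed by -0.13, with an interval from -0.36 to 0.11 (adjusted p = 0.45). In 2i 3B3-3l was lower than J1 by -1.55 ± 0.12 and lower than TKO by -1.42 ± 0.12, with adjusted p of 1.6e-06 and 3.6e-06, and by -1.81 and -1.69 with the slide as a block. Hence in 3B3-3l-2i *Myc* lay above and *Mycn* below their J1-2i levels.

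*Max*, which encodes the shared partner, moved less. It was 3.45, 3.24, 2.94 and 3.33 in J1-serum, 3.77 and 3.83 in TKO-serum, and 4.14 and 3.81 in 3B3-3l-serum. In 2i it was 3.56, 3.47 and 3.45 in J1, 3.34, 3.28 and 3.27 in TKO, and 3.53 and 3.57 in 3B3-3l. Both mutant lines lay above every J1 array in serum, and no such order was seen in 2i. *Max* fell in TKO with 2i by 0.50 ± 0.14 (SE) (adjusted p = 0.015), a call lost without either TKO-serum array (adjusted p = 0.050 and 0.078). The differences were 0.25 in J1 (adjusted p = 0.096), which passed with the slide as a block (0.32, adjusted p = 0.044), and -0.43 in 3B3-3l (adjusted p = 0.062), which passed in 4 of 28 alternatives and ranged over them from -0.59 to 0.01. The TKO change was lower than that of J1 by -0.75 (adjusted p = 0.0086), and the 3B3-3l change by -0.68 (adjusted p = 0.020). The last was -0.23 (adjusted p = 0.53) after another background correction, normexp. TKO-serum exceeded J1-serum by 0.56 (adjusted p = 0.0047).

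Among the partners that repress, *Mxd4* fell in 2i in every line. Its main probe read 0.66, 0.29, 0.48 and 0.48 in J1-serum, 0.04 and 0.33 in TKO-serum, and -0.69 and -0.49 in 3B3-3l-serum. In 2i it was -2.17, -2.10 and -2.28 in J1, -1.62, -1.47 and -1.42 in TKO, and -1.95 and -2.35 in 3B3-3l. No serum array overlapped a 2i array. *Mxd4* fell by 2.67 ± 0.13 (SE) in J1, 6.35-fold, and by 1.69 ± 0.15 in TKO, with adjusted p of 3.0e-09 and 2.1e-06. In J1-2i 2 of 3 arrays were well above background. In 3B3-3l-2i neither array was, and the level was at least 2.93-fold lower than in serum (adjusted p = 1.4e-05). The bound compares the serum mean with the higher of the dimmest signal above background and the probe's own signal. It leaves out the spread between arrays.

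The TKO change of *Mxd4* was smaller than that of J1 by 0.98 ± 0.20 (SE) (adjusted p = 0.0026). The 3B3-3l change has only a bound, so its distance from the other changes is not given. The second *Mxd4* probe also fell in each line, by 1.30 in TKO and at least 3.00-fold and 1.48-fold in J1 and 3B3-3l. Its J1-2i and 3B3-3l-2i levels were not well above background. Its TKO change minus that of J1 was 0.29 (adjusted p = 0.38), which rests on that dim J1-2i level. By the main probe TKO-2i exceeded J1-2i by 0.68 (adjusted p = 0.0028). 3B3-3l was below TKO by -0.77 in serum (adjusted p = 0.0043) and at least 1.55-fold lower in 2i (adjusted p = 0.0064). The 2i call was lost without the second 3B3-3l-2i array (-0.45, adjusted p = 0.082).

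*Mxd3*, a partner known from proliferating cells, was lower in 2i in J1 and TKO. It read -0.10, -0.53, -0.23 and -0.27 in J1-serum and -1.11, -1.04 and -1.16 in J1-2i. It was -0.38 and -0.11 in TKO-serum and -0.72, -0.67 and -0.59 in TKO-2i. In 3B3-3l it was -0.36 and -0.26 in serum and -0.45 and -0.60 in 2i. Serum and 2i arrays did not overlap in any of the 3 lines. *Mxd3* fell by 0.82 ± 0.11 (SE) in J1 (adjusted p = 3.8e-05) and by 0.41 ± 0.13 in TKO (adjusted p = 0.027). The TKO call was lost in 7 of 27 alternatives, among them within slide 1 (-0.38, adjusted p = 0.065) and without TKO-serum replicate 2 (-0.28, adjusted p = 0.22). The 3B3-3l difference was -0.22 (adjusted p = 0.34), and the difference between the 3B3-3l and J1 changes was 0.60 (adjusted p = 0.024). That last call was lost in 6 of 26 alternatives. In 2i TKO exceeded J1 by 0.44 (adjusted p = 0.015), a call lost in 3 of 28 alternatives. There 3B3-3l exceeded J1 by 0.58 (adjusted p = 0.0039), or by 0.33 with the slide as a block (adjusted p = 0.25).

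*Mxd1*, the founding MAD gene, which rises during differentiation, had 2 probes that disagreed. The main probe read -1.21, -2.34, -2.39 and -1.43 in J1-serum, -0.27 and -0.64 in TKO-serum, and -0.67 and -1.11 in 3B3-3l-serum. In 2i it was -1.90, -2.04 and -1.91 in J1, -1.71, -1.06 and -1.11 in TKO, and -0.62 and -1.40 in 3B3-3l. The 4 J1-serum arrays spanned more than 1 log2 unit, and 3 of them were well above background. The only call of the main probe was TKO-serum over J1-serum, at 1.39 ± 0.34 (SE) (adjusted p = 0.0059), which became 1.20 (adjusted p = 0.068) without TKO-serum replicate 1. The other probe gave 0.08 there (adjusted p = 0.75). In 3B3-3l-2i against J1-2i the main probe gave 0.94 (adjusted p = 0.055), and 0.10 with the slide as a block (adjusted p = 0.91). The other probe was not well above background in 3B3-3l-2i. It was lower there by at least 1.24-fold than in J1-2i (adjusted p = 0.0039), 1.48-fold than in TKO-2i (adjusted p = 8.0e-04) and 1.08-fold than in 3B3-3l-serum (adjusted p = 0.044). *Mxi1*, a further MAD-type repressor, was read between -5.14 and -4.28 and was well above background on 0 of 16 arrays, so it was not tested.

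*Mnt*, a broadly expressed repressor that pairs with MAX, rose with 2i in J1. It read 1.02, 0.61, 0.58 and 0.59 in J1-serum and 1.37, 1.34 and 1.52 in J1-2i. It was 1.72 and 1.25 in TKO-serum, 1.64, 1.50 and 1.69 in TKO-2i, 1.90 and 1.87 in 3B3-3l-serum, and 1.91 and 1.82 in 3B3-3l-2i. J1-serum was below every other group. The rise in J1 was 0.71 ± 0.13 (SE) (adjusted p = 7.0e-04), against 0.13 in TKO (adjusted p = 0.59) and -0.02 in 3B3-3l (adjusted p = 0.98). The 3B3-3l change was lower than that of J1 by -0.72 (adjusted p = 0.028), a call lost in 10 of 27 alternatives. The TKO change minus that of J1 was -0.58 (adjusted p = 0.059), or -0.68 with the slide as a block (adjusted p = 0.020). TKO-serum exceeded J1-serum by 0.78 (adjusted p = 0.0012). In 2i 3B3-3l exceeded J1 by 0.46 (adjusted p = 0.037), but by 0.03 with the slide as a block (adjusted p = 0.94). The block rests on J1-serum replicate 1, which at 1.02 lay above the other J1-serum arrays.

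In the comparison that chose the set, 3B3-3l-serum minus J1-serum, the other genes differed by 0.98 for *Mycn*, 0.74 for *Max*, 0.95 for *Mxd1*, -0.03 for *Mxd3*, -1.07 for *Mxd4* and 1.18 for *Mnt*. Against the J1-serum array on slide 3 alone these were 0.78, 0.52, 0.32, -0.21, -1.25 and 0.86. Those are main probes, and over all arrays the second probes of *Mxd1* and *Mxd4* gave 0.09 and -0.31. Of all 13854 genes, 52.8% were called there, which is printed as background and read no further.

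**Figure D2:**
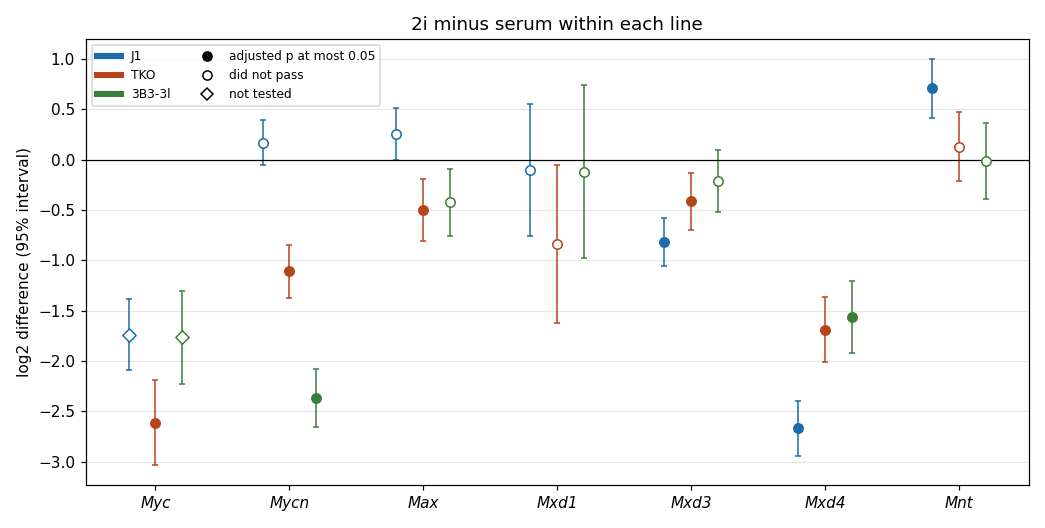
Difference between 2i and serum for 7 tested genes (vertical axis, log2, with 95% intervals of the limma fit) in J1, TKO and 3B3-3l. Filled circles passed an adjusted p of 0.05, open circles did not, and diamonds were not tested. *Mxd4* lies below 0 in all 3 lines, and *Mycn* lies near 0 in J1 (0.17) and at -2.36 in 3B3-3l.

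Counted over the set, 3 of 6 tested genes other than *Myc* changed with 2i in J1, *Mnt* up and *Mxd3* and *Mxd4* down, where 55.2% of all genes were called. Centring arrays on their median gave 5 of 6, with *Mycn* at 0.33 and *Max* at 0.41 added, and under that scaling the median of all probes was 0.21 in place of 0.05. In TKO 5 of 7 fell, against 18% of all genes lower and 38.8% called in either direction. *Myc*, *Mycn*, *Max*, *Mxd3* and *Mxd4* were these 5, and 3 remained without TKO-serum replicate 2. In 3B3-3l 2 of 6 fell, *Mycn* and *Mxd4*, where 15.4% of all genes were lower and 31.4% were called. For the differences between changes, 3 of 6 were called for TKO against J1 (30.4% of all genes), 5 of 6 for 3B3-3l against J1 (31.9%) and 1 of 6 for 3B3-3l against TKO (15.8%). The 5 include *Mxd4*, which was not well above background in 3B3-3l-2i. The 5 became 2 without 3B3-3l-serum replicate 1 or 3B3-3l-2i replicate 1, 3 without J1-2i replicate 3, and 2 after normexp. With a minimum of 2-fold, 1 member was called in J1, 3 in TKO and 2 in 3B3-3l, where 22.7%, 15.8% and 13.6% of all genes were. For the differences between changes these counts were 1, 2 and 1, against 15.3%, 17.2% and 9.49% of all genes. The 2 are *Mycn* and *Mxd4*, the latter again not well above background in 3B3-3l-2i. The comparisons of TKO and 3B3-3l with J1 share the J1 arrays.

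Between lines, 4 of 6 genes were higher in TKO-serum than in J1-serum, namely *Mycn*, *Max*, *Mxd1* and *Mnt*, and none was lower, where 22.8% of all genes were higher, 23.2% lower and 46% called. In 2i 3 of 7 were higher in TKO than in J1, *Myc*, *Mxd3* and *Mxd4*, against 13% higher and 26.4% called. Of 7 genes, 3 were higher and *Mycn* lower in 3B3-3l-2i than in J1-2i, against 43.8% called, and with the slide as a block *Mycn* alone was called of the 6 genes other than *Myc*. In 3B3-3l against TKO, 1 of 6 was lower in serum, *Mxd4*, and in 2i *Myc* was higher and *Mycn* and *Mxd4* lower, where 32.8% of all genes were called in each medium. With a minimum of 2-fold, 2 members were called for TKO against J1 in serum and 1 in 2i (16.5% and 7.34% of all genes), 2 for 3B3-3l against J1 in 2i (14.4%), and 0 and 2 for 3B3-3l against TKO in serum and 2i (10.7% and 9.99%).

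**Figure D3:**
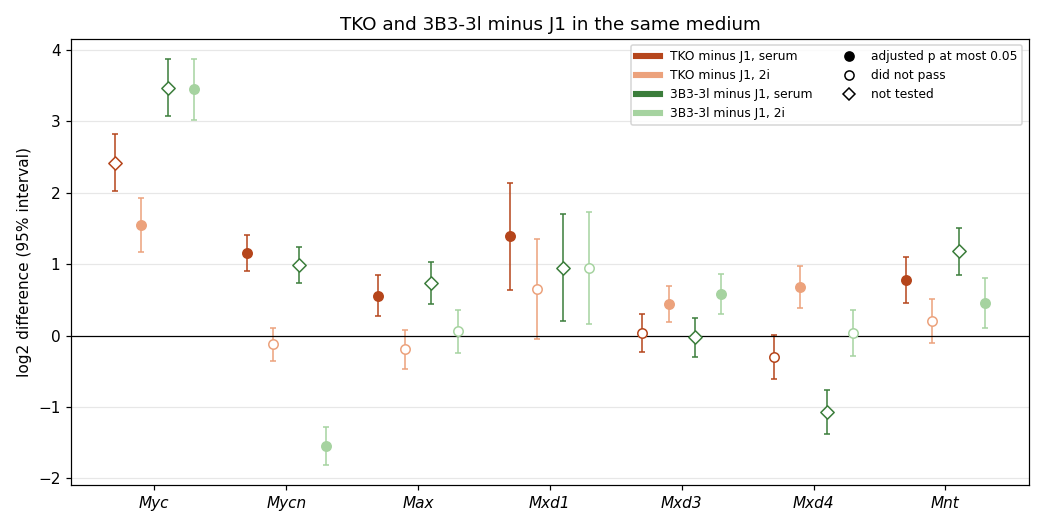
Difference of TKO or 3B3-3l from J1 in the same medium for 7 tested genes (vertical axis, log2, with 95% intervals of the limma fit). Filled circles passed an adjusted p of 0.05, open circles did not, and diamonds were not tested. For *Myc* all 4 differences lie above 0, whereas that of *Mycn* in 3B3-3l-2i lies at -1.55.

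The wider network was read from gene lists, which were written with earlier results of these data known. Of 6 further MAX-like and MYC-like genes, 5 were tested. *Mlxip*, which encodes a glucose-sensing partner of MLX, fell with 2i in J1 by 0.95 (adjusted p = 1.9e-05), in TKO by 0.68 (adjusted p = 0.0020) and in 3B3-3l by 0.70 (adjusted p = 0.0042). *Mga*, which encodes a MAX partner of a Polycomb complex, rose in J1 by 0.60 (adjusted p = 0.0014). In TKO *Mlx* and *Mlxipl* also fell, by 0.73 (adjusted p = 0.0020) and 0.72 (adjusted p = 0.011), giving 0 higher and 3 lower of 5, against 20.9% and 18% of all genes. In J1 1 rose and 1 fell, against 30.2% and 25%, and in 3B3-3l 0 rose and 1 fell, against 16% and 15.4%. *Mycl*, the third MYC family gene, was higher in TKO than in J1 by 1.55 in serum (adjusted p = 0.0047) and 1.20 in 2i (adjusted p = 0.026).

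Of 17 genes for cofactors of MYC, 16 were tested. In J1 4 rose and 2 fell with 2i, in TKO 1 rose and 2 fell, and in 3B3-3l 1 rose and 4 fell. Of all genes 30.2% rose and 25% fell in J1, 20.9% and 18% in TKO, and 16% and 15.4% in 3B3-3l. *Wdr5*, which encodes a chromatin adaptor that binds MYC, rose in all lines, by 1.05 in J1 (adjusted p = 2.6e-06), 0.97 in TKO (adjusted p = 5.1e-05) and 0.82 in 3B3-3l (adjusted p = 5.7e-04). *Bin1*, which encodes a MYC-binding adaptor, fell by 1.59 in J1 (adjusted p = 2.4e-07) and 1.20 in 3B3-3l (adjusted p = 9.1e-05). In 2i 5 were higher and 0 lower in 3B3-3l than in J1, against 25.3% and 18.5% of all genes, and 2 and 0 with the slide as a block. Among the 5 were *Ccnt1* by 1.04 (adjusted p = 0.012) and the helicase genes *Ruvbl1* and *Ruvbl2* by 0.82 (adjusted p = 6.1e-05) and 0.83 (adjusted p = 0.0011).

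All 14 genes for the SIN3 and histone deacetylase corepressor were tested, and none fell with 2i in any line. Of all genes 25%, 18% and 15.4% fell in J1, TKO and 3B3-3l. In J1 3 rose, against 30.2% of all genes, with *Hdac2* up by 1.04 (adjusted p = 3.3e-04) and *Hdac1* by 0.68 (adjusted p = 0.0013), and in TKO 4 rose, against 20.9%, with *Sap18* up by 0.83 (adjusted p = 5.4e-04). In 3B3-3l 0 of 14 were called by limma, 3 had an unadjusted p under 0.05, and their differences ran from -0.34 to 0.58. In 2i 6 were higher in 3B3-3l than in J1 and 0 lower, against 25.3% and 18.5% of all genes, with *Hdac1* at 0.64 (adjusted p = 0.0093). With the slide as a block limma called 0 of 14, and 3 had an unadjusted p under 0.05.

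Of 17 genes for kinases, ligases and deubiquitinases that act on MYC protein, 15 were tested. In J1 6 rose and 4 fell with 2i, 40% and 26.7% of the list against 30.2% and 25% of all genes. In TKO 1 rose and 3 fell, 6.67% and 20% against 20.9% and 18%, and in 3B3-3l 1 rose and 1 fell, 6.67% each against 16% and 15.4%. *Gsk3b*, which encodes the kinase that the 2i medium inhibits, rose by 0.91 in J1 (adjusted p = 4.8e-04) and 0.93 in TKO (adjusted p = 0.0025). *Usp28*, a deubiquitinase gene, fell by 0.93 in J1 (adjusted p = 0.0025). *Skp2*, a ubiquitin ligase gene, fell by 0.70 in TKO (adjusted p = 0.0029). *Usp36* fell in TKO and 3B3-3l, by 0.64 in each (adjusted p = 0.0030 and 0.0039).

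Genes known to be raised by MYC, mostly of ribosome biogenesis, nucleotide and polyamine synthesis and the cell cycle, formed a list of 52, all tested. In J1 21 rose and 5 fell with 2i, 40.4% and 9.62% of the list against 30.2% and 25% of all genes, with a median difference of 0.21 against 0.05. Centring arrays on their median gave 30 and 3, with a median of 0.37, and moved all genes the same way, to 5029 up and 2622 down of 13863 in place of 4183 and 3468, with a median of 0.21. In TKO 3 rose and 11 fell, 5.77% and 21.2% of the list against 20.9% and 18% of all genes, with a median of -0.02 against 0.07. In 3B3-3l 2 rose and 11 fell, 3.85% and 21.2% against 16% and 15.4%, with a median of -0.13 against 0.00. The 2i change was lower than that of J1 for 17 genes in TKO and 19 in 3B3-3l, where 15% and 17.1% of all genes were lower, and higher for 3 and 4, where 15.5% and 14.8% were.

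*Ccnd2*, which encodes cyclin D2, fell by 4.46 in TKO (adjusted p = 1.6e-10) and 3.33 in 3B3-3l (adjusted p = 6.9e-09). In J1-2i it was not well above background, at least 53.7-fold lower than in J1-serum (adjusted p = 1.5e-12). *Pes1*, a ribosome biogenesis gene, rose by 2.41 in J1 (adjusted p = 9.2e-09), and its changes in TKO and 3B3-3l were lower than that by -2.13 (adjusted p = 8.5e-06) and -2.46 (adjusted p = 3.6e-06). *Odc1* and *Srm*, which encode enzymes of polyamine synthesis, fell in 3B3-3l by 1.15 (adjusted p = 2.8e-04) and 1.01 (adjusted p = 1.9e-04).

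In TKO-serum 29 of the 52 were higher than in J1-serum and 2 lower, 55.8% and 3.85% against 22.8% and 23.2% of all genes, with a median of 0.46 against 0.01. Of the 29, 12 were at least 2-fold higher, against 7.79% of all genes, led by *Pes1* at 2.71 (adjusted p = 3.7e-08), *Imp4* at 1.74 (adjusted p = 6.7e-06) and *Polr1b* at 1.73 (adjusted p = 3.3e-07), genes of ribosomal RNA production. Within slide 1 the counts were 26 and 2. In 2i 17 were higher and 2 lower in TKO than in J1, against 13% and 13.5% of all genes, with a median of 0.24 against 0.05. These counts became 9 and 2 with arrays centred on their median, where 1151 and 2061 of 13861 genes were called in place of 1797 and 1866, and 10 and 3 of 44 in the authors' table, where 1280 and 1907 of 12478 were. In 3B3-3l-2i 25 were higher and 4 lower than in J1-2i, against 25.3% and 18.5% of all genes, with a median of 0.35 against 0.09, among them *Mat2a* at 1.04 (adjusted p = 8.5e-05), *Ddx18* at 0.98 (adjusted p = 1.2e-04) and *Cdc25a* at 0.89 (adjusted p = 1.1e-04). The counts were 19 and 2 with the slide as a block, where 1553 and 1182 of 13861 genes were called, and 13 and 5 of 44 in the authors' table, where 2327 and 2672 of 12478 were. *Ccnd2* was at least 2.17-fold and 3.18-fold higher in TKO-2i and 3B3-3l-2i than in J1-2i. In serum, the median of the 52 was 0.82 in 3B3-3l minus J1, against 0.13 over all genes, as a description.

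A list of 11 genes known to be lowered by MYC was also read. With 2i 1 rose and 6 fell in J1, with a median of -0.55 against 0.05 over all genes, of which 30.2% rose and 25% fell. In TKO 4 rose and 4 fell, with a median of 0.27 against 0.07, where 20.9% and 18% of all genes did. In 3B3-3l 2 rose and 4 fell, with a median of -0.43 against 0.00, where 16% and 15.4% did. *Cdkn1a*, which encodes the cell cycle inhibitor p21, rose by 0.51 in J1 (adjusted p = 0.0018), 1.57 in TKO (adjusted p = 1.2e-06) and 1.61 in 3B3-3l (adjusted p = 3.3e-06). *Gadd45a*, a growth arrest gene, fell by 1.61 in J1 (adjusted p = 5.7e-07), 1.26 in TKO (adjusted p = 5.0e-05) and 2.21 in 3B3-3l (adjusted p = 1.2e-06). *Ndrg2* fell by 1.62 in J1 (adjusted p = 4.9e-07) and 0.60 in TKO (adjusted p = 0.011) and rose by 1.24 in 3B3-3l (adjusted p = 1.7e-04). *Gata6*, which is also a primitive endoderm marker, was not well above background in J1-2i and was at least 49.4-fold lower there than in J1-serum (adjusted p = 1.4e-07). Against J1-serum, 8 of the 11 were lower in TKO-serum and 1 higher, with a median of -1.10 against 0.01, where 23.2% of all genes were lower and 22.8% higher. *Gata6* was lower by -3.22 (adjusted p = 3.7e-04), *Ddit3*, a stress response gene, by -2.90 (adjusted p = 6.7e-07) and *Ndrg2* by -2.01 (adjusted p = 5.3e-07). In 2i 4 were lower and 0 higher in TKO than in J1, against 13.5% of all genes lower and 13% higher, and 6 lower and 1 higher in 3B3-3l than in J1, against 18.5% and 25.3%, which was 3 and 0 with the slide as a block. The fibroblast and primitive endoderm lists given above had their highest summed level in J1-serum, though not necessarily each marker. Their part in the differences from J1-serum was not tested.

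**Figure D4:**
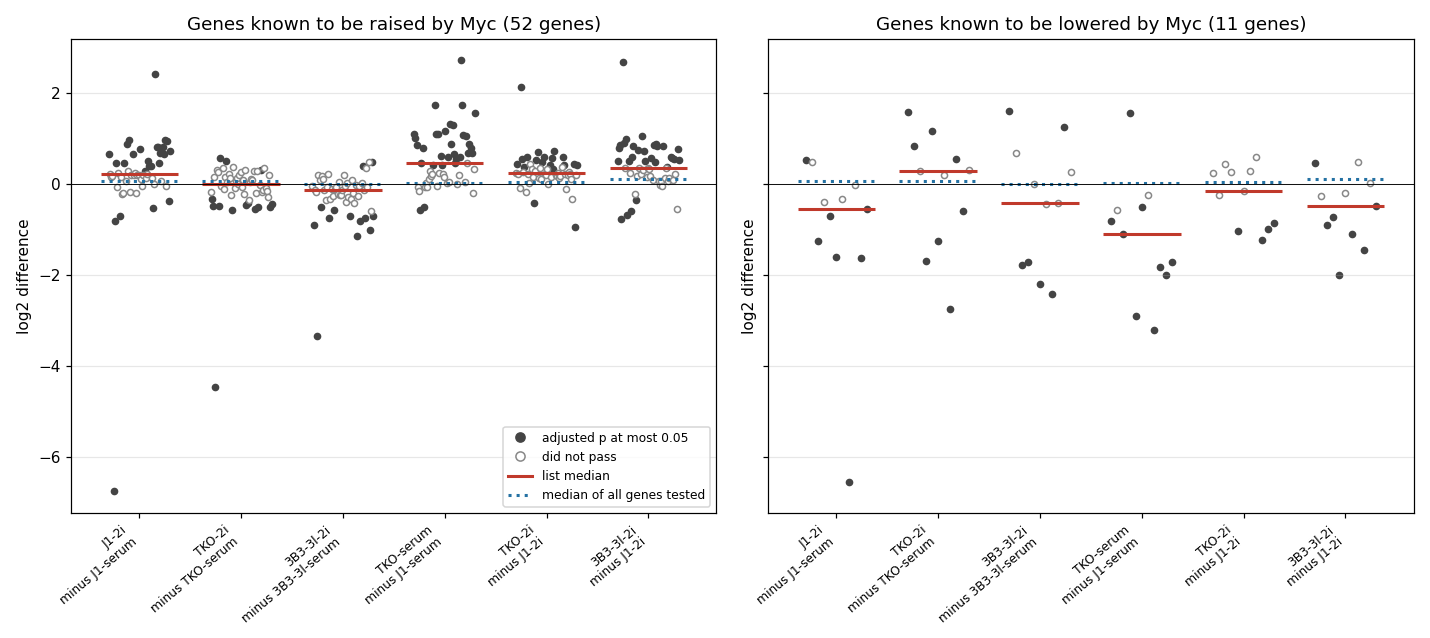
Differences of the 52 genes known to be raised (left) and the 11 known to be lowered (right) by MYC in 6 comparisons (vertical axis, log2). Filled points passed an adjusted p of 0.05, red bars are list medians and dotted bars the medians of all genes tested. The comparisons are 2i against serum in each line, TKO against J1 in each medium, and 3B3-3l against J1 in 2i. Among these 6 the left list has its highest median in TKO-serum minus J1-serum (0.46), and its lowest points in the comparisons of media are *Ccnd2*.

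Genes whose level ran most like that of *Myc* over the 16 arrays were ranked by Pearson's r among 5702 genes with a standard deviation of at least 0.5. The arrays share 6 groups, so r mostly repeats the pattern of the group means, and it is given as a description. The highest were *Itga9*, an integrin gene, at 0.964, *Rhox6*, a homeobox gene, at 0.962, *Ccne1*, which encodes cyclin E1, at 0.960, *Eef1aknmt*, a methyltransferase gene, at 0.960, and the imprinted *Snrpn* at 0.951. *Ccne1* fell from a mean level of 5.67 in 3B3-3l-serum to 3.56 in J1-2i, the same highest and lowest groups as *Myc*. *Itga9* was well above background in TKO-serum and 3B3-3l-serum only. For *Mycn* the highest were *Grhl2*, an epithelial transcription factor gene, at 0.967, *Ppp1r1a*, a phosphatase inhibitor gene, at 0.941, and *Acsl5*, a fatty acid activation gene, at 0.917. These 3 were not well above background in 3B3-3l-2i, the group in which *Mycn* was lowest.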

How the data were processed

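Single-colour arrays of mESC total RNA (RNA integrity of at least 9.5 per the labels, Cy3-labelled) were read by the authors with Agilent Feature Extraction 11.5.1.1, as the submitters' processing notes state. The deposited intensity is its background-subtracted processed signal, not normalized between arrays, and the raw median and background intensity of each spot is also deposited. The authors' deposited table of log2 values held 30170 probes. In 13 of its 16 columns the best match among the scanner files was another replicate of the same group, so it served as an alternative only.

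Values were log2 of processed signal minus the array's 75th percentile, which ran from 1019 to 1797 intensity units. Non-uniform and population outlier spots were dropped, saturated spots kept and spots of a probe averaged. Replicates correlated at 0.968 to 0.990. A probe was tested if at least 0.5 of its spots were well above background on every array of 1 or more groups (26993 probes, 13872 genes, 9 probes of 7 members). A gene was read by its brightest tested probe on average. limma 3.58.1 (R 4.3.3) fitted 6 group means over 16 arrays, with Benjamini-Hochberg adjustment over all probes tested and calls at 0.05. The script was checked on simulated data. The number of arrays limits the precision.

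Groups came from the sample titles. The members, the gene lists and the tests were chosen with earlier results of these data known. Named genes were all members, genes among the up to 3 of each list with the largest called change in a comparison and well above background on every array of 1 of its groups, and the genes most like *Myc* (5) and *Mycn* (3). A list gene so named was also followed into other comparisons. *Ccnd2* in the comparisons of TKO-2i and 3B3-3l-2i with J1-2i was named after its values were seen. So were the markers *T*, *Cdx2* and *Tfap2a* in 2i. Alternatives covered background correction, scaling, source table, filter, probe, saturated spots, slide, replicate number, arrays fitted, a 2-fold minimum and each array left out. Values within slide 2 were added after seeing the data. Array coordinates (mm9) were not used with the GRCm38.p6 promoters. A gene that the naming rule selected from a list is not reported here.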

Additional observations from a re-analysis of the deposited data

Results flagged for a closer look

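The 2i change differed between lines by a test of the difference itself (limma, log2 scale) for 3 of 6 tested genes in TKO against J1 (30.4% of all genes), 5 of 6 in 3B3-3l against J1 (31.9%) and 1 of 6 in 3B3-3l against TKO (15.8%). The 5 include *Mxd4*, not well above background in 3B3-3l-2i. For *Mycn* the TKO change minus that of J1 was -1.28, the 3B3-3l change minus that of J1 was -2.53, and the 3B3-3l change minus that of TKO was -1.26. For *Max* the TKO and 3B3-3l changes minus that of J1 were -0.75 and -0.68. For *Mxd4* the TKO change minus that of J1 was 0.98 by its main probe. The second probe, not well above background in J1-2i, gave 0.29 (adjusted p = 0.38). For *Mxd3* the 3B3-3l change minus that of J1 was 0.60, and for *Mnt* it was -0.72. For 3B3-3l against J1 the call was lost in 10 of 27 alternatives for *Mnt*, 6 of 26 for *Mxd3* and 3 of 27 for *Max*. The J1 arrays enter each comparison with J1, and J1 alone was grown on feeder cells in serum, so line and feeder cells cannot be told apart in them. In J1-serum, *Mnt* read 1.02 in replicate 1, which lay on slide 3, and 0.58 to 0.61 in the other replicates, a gap of 0.944 of the range against Dixon's critical value of 0.829 for 4 samples. Chance alone takes a group past that critical value in about 1 in 20 groups.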

How the results depend on the processing

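No member reversed a call under any alternative run. Of 1893 values of single genes with a test, 1767 kept their direction and side of the threshold, 45 lost the call, 26 gained one, and 55 changed sign without passing in either setting. Counts of members called moved by over 1.5 times as follows. A 2-fold minimum left 1 in J1-2i minus J1-serum, 3 in TKO-2i minus TKO-serum, 2 in TKO-serum minus J1-serum, 1 in TKO-2i minus J1-2i, 2 in 3B3-3l-2i minus J1-2i, 0 in 3B3-3l-serum minus TKO-serum, and 1 and 2 for the TKO and 3B3-3l changes against that of J1. The 2 for the 3B3-3l change include *Mxd4*, not well above background in 3B3-3l-2i. Array median scaling gave 5 in J1-2i minus J1-serum. For 3B3-3l-2i minus J1-2i the authors' table gave 2, and the slide as a block 1 of 6 without *Myc*. For 3B3-3l-serum minus TKO-serum a filter on all 16 arrays and a fit of only the groups compared gave 0 in limma (1 and 1 at an unadjusted p under 0.05), where *Mxd4* missed the threshold in the second (adjusted p = 0.060) and was not tested in the first. For the 3B3-3l change against that of J1, normexp gave 2 and the authors' table and no filter gave 3 each. Leaving out single arrays gave 3 to 4 members for J1-2i minus J1-serum, 3 to 5 for TKO-2i minus TKO-serum, 2 to 3 for 3B3-3l-2i minus 3B3-3l-serum, 3 to 4 for TKO-serum minus J1-serum, 2 to 3 for TKO-2i minus J1-2i, 3 to 5 for 3B3-3l-2i minus J1-2i, 1 to 2 for 3B3-3l-serum minus TKO-serum, 2 to 3 for 3B3-3l-2i minus TKO-2i, 3 to 4 for the change of TKO against J1, 2 to 5 for that of 3B3-3l against J1, and 1 throughout for that of 3B3-3l against TKO. For 3B3-3l-serum minus TKO-serum the count was 2 without J1-serum replicate 1 or TKO-serum replicate 1, with *Mnt* added.

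Same-numbered samples of 2i and serum correlated at -0.127 to 0.028 in J1, -0.028 to 0.020 in TKO and 0.273 to 0.275 in 3B3-3l, which had 2 pairs, so the numbers were not taken to pair them. With the replicate block 3 members were called in J1, 4 in TKO and 2 in 3B3-3l. *Mxd3* lost its TKO call (-0.43, adjusted p = 0.069) and its difference between the 3B3-3l and J1 changes (0.60, adjusted p = 0.072). Over all genes the share of calls that were higher was 54.7% in J1-2i minus J1-serum, 50.9% in 3B3-3l-2i minus 3B3-3l-serum, 49.1% in TKO-2i minus J1-2i and 50.8% for the TKO change against that of J1, and array median scaling gave 65.7%, 61.9%, 35.8% and 38.7%. For 3B3-3l-2i minus J1-2i it was 57.8%, and 47.1% after quantile normalization, and for 3B3-3l-serum minus TKO-serum 62.8% and 52.4%. *Mxd1* in 3B3-3l-2i minus J1-2i (0.94, adjusted p = 0.055) passed in 8 alternatives and was 0.10 (adjusted p = 0.91) with the slide as a block, and *Mnt* (0.46) was lost in 9. The causes were not tested. *Mxi1* was too dim for any test.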
